A study of Mus musculus with 3 samples.

Results

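The genes described here are the MEF2 transcription factors (Mef2a, Mef2b, Mef2c and Mef2d), serum response factor (Srf) and the myocardin-related coactivators of SRF (Mkl1, also called Mrtfa, Mkl2, also called Mrtfb, and Myocd, myocardin). They were chosen by symbol, and all 8 were found among the 20308 genes of the table. Their transcripts were read by RNA sequencing of satellite cells, which are the stem cells of skeletal muscle. The cells came from hindlimb muscle of Pax7-ZsGreen mice aged 3 months, dissociated with enzymes and sorted for the green reporter ZsGreen. The 3 libraries formed 1 group of about 200000 sorted cells each, from muscle of several animals, so no treated, mutant or undigested sample stands beside them. Pax7 drives the reporter used for the sort. The tissue is given as tibialis anterior in the sample labels and as hindlimb muscles in the series description. Separate animals per library are not stated, so p-values cover the spread between these 3 samples, part or all of which may be technical.

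MEF2 proteins and SRF both belong to the MADS-box family and bind AT-rich DNA. MEF2 factors act with MyoD-family proteins on muscle genes, are held back by class IIa histone deacetylases, and are freed by calcium-dependent and p38 kinase signalling. SRF binds the CArG box and works with competing partners: ternary complex factors, which carry growth factor signals to immediate-early genes, and the myocardin-related factors, which sense the pool of unpolymerised actin and drive cytoskeletal genes. In muscle, both families are known for roles in myoblast differentiation, fusion and fibre growth.

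Levels are TPM, a share of transcripts corrected for length and scaled to a common total, and each library summed to about 1000000. Read totals are not kept in TPM, so depth is unknown and no counting interval is given. The libraries listed 10709 to 11202 genes above 0. The sorted cells carried the markers of their label. All 9 satellite cell markers were above 1 TPM, as were 60.8% of all genes tested (limma, Benjamini-Hochberg). Highest was Myod1, a partner of MEF2, at 1240 ± 74.5 TPM (SD, n = 3). Chodl averaged 508 ± 49.3 TPM and Vcam1 467 ± 44.0 TPM. Genes listed as markers of other cells of muscle were also detected. The 6 fibro-adipogenic markers summed to between 1587 and 1886 TPM per library, and 5 (83.3% of the 6 tested) were above 1 TPM. The list was led by Gsn, Dpt and Dcn, and Gsn and Dpt made up most of the sum. Pdgfra, the receptor that defines these cells, gave 4.98, 0.11 and 0.06 TPM in replicates 1, 2 and 3 and was not decided (limma adjusted p = 0.618). The 9 muscle fibre markers summed to between 159 and 241 TPM, led by Actn3, Tnnc2 and Acta1, and Myh2 was listed at 0. Of the 8 tested, 5 (62.5%) were above 1 TPM, close to the 60.8% of all genes tested. Whether these transcripts came from other cells or from the satellite cells was not tested. Fewer cells of a type and less RNA per cell also cannot be told apart.

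Mef2d, Mef2a and Srf were the abundant members, Mkl1, Mef2c and Mkl2 stood at a few TPM, and Mef2b and Myocd were listed at 0 in all 3 libraries. Of the 8 members, 6 were above 0 in at least 1 library and could be tested against 1 TPM. In that fit across all genes, the estimates of all 6 were higher than 1 TPM, 5 of them past the threshold, and Mkl2 was not decided (limma on log2(TPM + 0.1), Benjamini-Hochberg over all genes tested). Among all 12822 genes tested, 60.8% were called above 1 TPM and 2.18% below, so a member above 1 TPM is an ordinary outcome. The median of the mean levels was 19.5 TPM over the 6 members tested and 11.5 TPM over all genes tested. The count of 5 was 4 without replicate 1 and 4 without replicate 2.

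**Figure D1:**
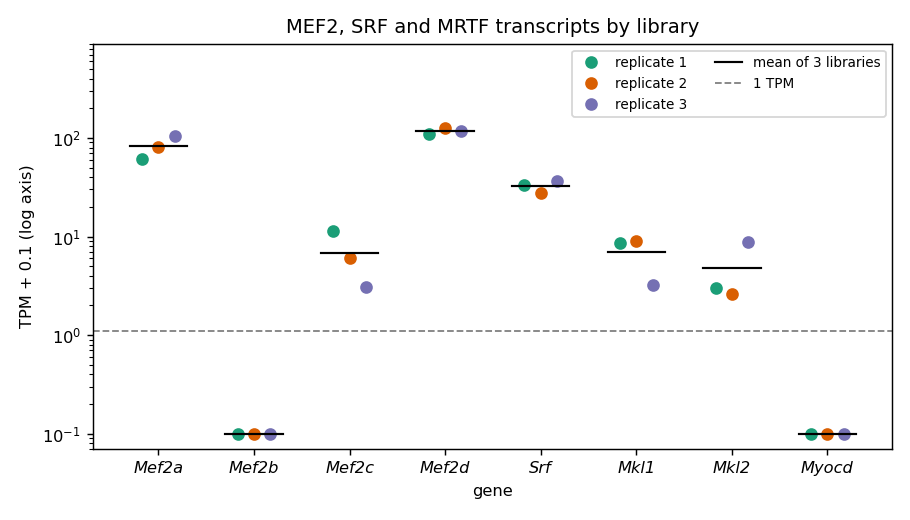
TPM + 0.1 (log axis) of each of the 8 genes in each library, with the mean of the 3 libraries as a bar and 1 TPM as a dashed line. Mef2d, Mef2a and Srf lie above 25 TPM in every library, while Mef2b and Myocd sit at the bottom because they are listed at 0.

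Mef2d, a MEF2 gene used in many tissues, was the highest and steadiest member. It gave 111, 126 and 117 TPM in replicates 1, 2 and 3, a mean of 118 ± 7.93 TPM (SD, n = 3). Its mean exceeded that of 93.6% of the genes in the table. The level lay 6.74 ± 0.118 (SE) above 1 TPM on the log2(TPM + 0.1) scale (limma adjusted p = 1.61e-11). Mef2d spans chr3:88142372-88172086 (GRCm38, plus strand). An antisense gene, 1700113A16Rik, covers 8.87% of its exon bases; the strand setting of the libraries is not given, so reads of both cannot be told apart there.

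Mef2a, which is required for heart and muscle function in mice, came next. It gave 60.8, 81.1 and 105 TPM in replicates 1, 2 and 3, a mean of 82.4 ± 22.3 TPM, and lay 6.19 ± 0.172 (SE) above 1 TPM on the log2 scale (limma adjusted p = 4.53e-10). Mef2a lies at chr7:67231163-67372858 on the minus strand. It was lower than Mef2d within every library, but the difference varied: the log2 ratio of Mef2a over Mef2d was -0.86, -0.64 and -0.15, a mean of -0.55 ± 0.363 (SD; exact two-sided sign-flip permutation p = 0.25, the smallest that 3 libraries allow). Their ranges over the libraries did not overlap, with the highest Mef2a library at 105 TPM and the lowest Mef2d library at 111 TPM. The log2 ratio was -0.39 without replicate 1 and -0.75 without replicate 3, so it rests unevenly on the libraries.

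Mef2c, the MEF2 gene that in development is switched on in muscle by MyoD-family factors, was lower and uneven. It gave 11.2, 5.96 and 2.99 TPM in replicates 1, 2 and 3, so the highest library held 3.73 times the TPM of the lowest. The mean of 6.70 ± 4.13 TPM lay 2.44 ± 0.719 (SE) above 1 TPM on the log2 scale (limma adjusted p = 0.0143), and the call was lost without replicate 1 (limma adjusted p = 0.129). Mef2a exceeded Mef2c in 3 of 3 libraries, by 2.44, 3.74 and 5.09 on the log2 scale (mean 3.76 ± 1.33, 13.5-fold, exact two-sided sign-flip permutation p = 0.25). The mean log2 ratio was 4.42 without replicate 1 and 3.09 without replicate 3, so the size of the fold depends on which libraries are kept. Mef2c spans chr13:83504034-83667080 on the plus strand.

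Endothelial cells and B cells also use Mef2c, and genes listed as markers of endothelial cells and of leukocytes were detected. All 7 endothelial markers were above 1 TPM, as were 60.8% of all genes tested, and were led by Cldn5, Pecam1 and Tek. Their sum was 174, 216 and 289 TPM in replicates 1, 2 and 3, the opposite order to Mef2c. Singly, only Cldn5 and Pecam1 rose in that order. Tek and, named after their values were seen, Cdh5, Kdr, Flt1 and Emcn did not. The 8 leukocyte markers summed to 201, 211 and 176 TPM. Of the 7 tested, 3 were above 1 TPM (42.9%, against 60.8% of all genes tested) and 4 were not decided. The B cell gene Cd79a gave 27.4, 16.2 and 8.45 TPM, in the same order as Mef2c, while Cd74 gave 134, 165 and 161 TPM. Ptprc gave 12.2, 15.4 and 2.18 TPM, and Cd3e was listed at 0. Their part in the Mef2c level was not tested.

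Mef2b, which is known mainly from B cells and their germinal centres, was listed at 0 in all 3 libraries. The gene (chr8:70139711-70167488, plus strand) shares 62 exon bases with Borcs8 on the same strand. A listed 0 can be a failed estimate in such tables, and the value describes the table only.

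The 4 MEF2 genes together gave 182, 213 and 225 TPM in replicates 1, 2 and 3. Mef2d held 60.6%, 59.2% and 51.9% of that sum, Mef2a held 33.3%, 38.0% and 46.8%, and Mef2c held 6.11%, 2.79% and 1.33%. Mef2d was thus the largest part in every library, and the libraries with more Mef2a had less Mef2c.

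**Figure D2:**
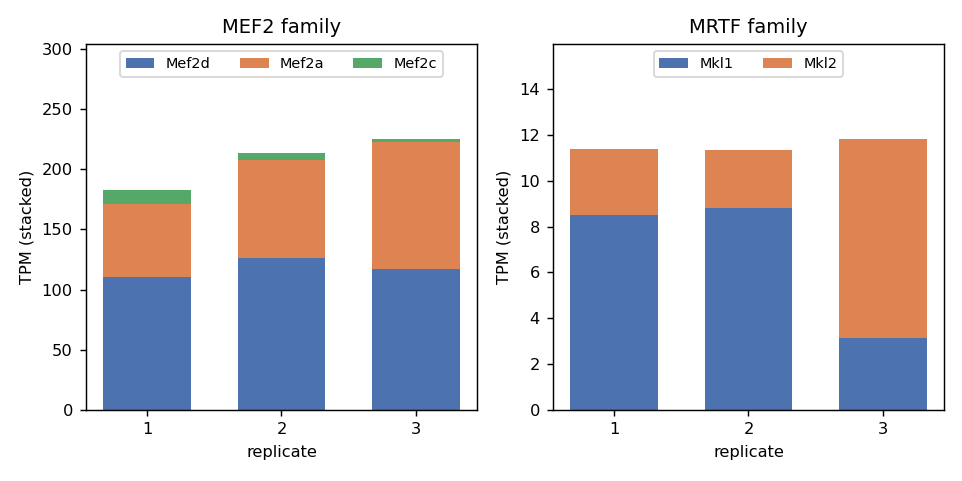
Stacked TPM of the MEF2 genes (left) and of Mkl1 and Mkl2 (right) in each library; genes listed at 0 are not drawn. Mef2d is the largest part of the MEF2 sum in each library, and Mkl1 and Mkl2 trade places in replicate 3 while their sum stays between 11.4 and 11.8 TPM.

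Srf, the DNA-binding partner of the myocardin family, was well above its coactivators. It gave 33, 27.4 and 36.1 TPM in replicates 1, 2 and 3, a mean of 32.2 ± 4.402 TPM, which exceeded the mean of 81.7% of the genes in the table. The level lay 4.87 ± 0.216 (SE) above 1 TPM on the log2 scale (limma adjusted p = 1.71e-08). Mef2a exceeded Srf in 3 of 3 libraries, by a mean of 1.33 ± 0.388 on the log2 scale (exact two-sided sign-flip permutation p = 0.25), and the ranges of the 2 genes did not overlap. Srf lies at chr17:46548329-46556175 on the minus strand.

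Srf is itself known as a target of SRF, and its promoter is shown because it holds 2 CArG boxes, the sequence that SRF binds. The window runs from 250 bases before to 50 after the RefSeq start (GRCm38.p6, chr17:46556113-46556412, minus strand), with the CArG boxes in capitals. They begin at positions -82 and -62 from the start.
Srf: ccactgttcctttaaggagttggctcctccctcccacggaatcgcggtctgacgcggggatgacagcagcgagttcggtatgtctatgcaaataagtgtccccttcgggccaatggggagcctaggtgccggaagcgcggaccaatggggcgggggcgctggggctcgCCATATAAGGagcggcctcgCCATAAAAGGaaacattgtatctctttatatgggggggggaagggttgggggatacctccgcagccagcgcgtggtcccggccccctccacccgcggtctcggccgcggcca
Of all 32851 mouse promoters of this length, 1.63% hold a CArG box, searched on both strands. Promoter windows were found for 7 of the 8 members (Myocd had none), and Srf was the member with a CArG box. A match describes the letters of this window and not binding in these cells.

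A MEF2 site was found in the promoters of Mef2a and Mkl2, against 3.19% of all promoters and 3.704% of all genes with any such promoter. In Mef2a it begins at position -2, across the start itself (chr7:67372809-67373108, minus strand, capitals marking the site). In Mkl2 it lies in the window of the third of its 3 starts, at position -165. None of these matches overlapped a CArG box.
Mef2a: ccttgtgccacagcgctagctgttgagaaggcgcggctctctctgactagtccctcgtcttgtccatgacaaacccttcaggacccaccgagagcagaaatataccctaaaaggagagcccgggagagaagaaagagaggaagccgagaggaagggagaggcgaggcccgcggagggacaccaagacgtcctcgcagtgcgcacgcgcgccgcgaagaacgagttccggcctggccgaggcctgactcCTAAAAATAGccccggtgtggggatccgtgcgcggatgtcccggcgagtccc

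Mkl1 and Mkl2, which carry the actin signal to SRF, were both low, and which was higher differed between libraries. Mkl1 gave 8.49, 8.83 and 3.13 TPM in replicates 1, 2 and 3, and Mkl2 gave 2.91, 2.53 and 8.71 TPM. Mkl1 was thus higher in replicates 1 and 2 and Mkl2 in replicate 3. The log2 ratio of Mkl1 over Mkl2 was 1.51, 1.76 and -1.45, a mean of 0.61 ± 1.79 (SD; exact two-sided sign-flip permutation p = 0.5). It was 1.64 without replicate 3, 0.16 without replicate 1 and 0.03 without replicate 2. The difference was smaller than the spread between libraries and no order of the coactivators was established.

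Their sum was steadier than either gene, at 11.4, 11.4 and 11.8 TPM, of which Mkl1 made up 74.5%, 77.7% and 26.4%. The longest transcripts of Mkl1 and Mkl2 shared 0 words of 31 bases with each other, and 0% of the Mkl1 words and 1.66% of the Mkl2 words occurred in any other gene's transcripts. Mkl1 lies at chr15:81012281-81190757 on the minus strand and Mkl2 at chr16:13256481-13417529 on the plus strand. Whether the exchange reflects the cells or the estimation of low values was not tested.

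Against 1 TPM, Mkl1 averaged 6.82 ± 3.20 TPM and lay 2.51 ± 0.687 (SE) above it on the log2 scale (limma adjusted p = 0.00954), a call lost without replicate 2 (limma adjusted p = 0.0585). Mkl2 averaged 4.72 ± 3.46 TPM and was not decided (log2 difference 1.90 ± 0.886, 95% interval -0.11 to 3.92, limma adjusted p = 0.0925). With no trend in the variance prior Mkl2 passed (limma adjusted p = 0.0400).

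Srf exceeded Mkl1 in 3 of 3 libraries, by 1.95, 1.62 and 3.49 on the log2 scale (mean 2.35 ± 0.996, 5.11-fold, exact two-sided sign-flip permutation p = 0.25). It also exceeded Mkl2 in 3 of 3 libraries, by a mean of 2.96 ± 0.80. In TPM, the transcript of the DNA-binding factor was thus above that of each coactivator in every library. The annotation behind the length correction is not given, and an error common to all libraries is not covered by this spread.

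Myocd, the heart and smooth muscle member of the coactivator family (chr11:65176561-65269989, minus strand), was listed at 0 in all 3 libraries. Genes listed as markers of mural and smooth muscle cells were detected at the same time, and summed to 283, 226 and 273 TPM. Of the 6, 4 were above 1 TPM (66.7%, against 60.8% of all genes tested), 1 was below and 1 was not decided. The last, named after its values were seen, was Pdgfrb at 3.14, 4.51 and 2.79 TPM in replicates 1, 2 and 3 (limma adjusted p = 0.155). Acta2 averaged 95.04 ± 8.65 TPM, Tagln 84.0 ± 23.2 TPM and Rgs5 64.4 ± 30.03 TPM. The smooth muscle gene Cnn1 gave 0, 0 and 0.18 TPM and was called below 1 TPM (limma adjusted p = 0.0414). That call was lost without replicate 1 or 2 and, with all 3 libraries kept, with a pseudocount of 0.01 (limma adjusted p = 0.114). Without replicate 3, or under the filter at a mean of 0.1 TPM, the gene was not tested.

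In order of mean level the members ran Mef2d, Mef2a, Srf, Mkl1, Mef2c and Mkl2. Of the 15 pairs among these 6 genes, 12 had ranges that did not overlap over the libraries. How often other pairs of genes separate in this way was not computed, so the count describes these 6 genes only. The 3 pairs that overlapped were those among Mkl1, Mef2c and Mkl2. Mkl1 over Mef2c had a mean log2 ratio of 0.08 ± 0.474, and Mef2c over Mkl2 one of 0.53 ± 1.803, so these neighbours did not differ beyond their spread. Mkl1, Mef2c and Mkl2 thus form an unordered lower group.

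The spread between libraries also differed among the members. Mef2d had an SD of 0.10 on the log2 scale and Srf of 0.20, below the SD of 0.23 and 0.41 that the fit's trend gives at their levels. Mef2a, with an SD of 0.40, lay above its trend value of 0.26, the one member to do so. Mef2c, Mkl1 and Mkl2 had SDs of 0.93, 0.83 and 0.96, below trend values of 1.32, 1.28 and 1.67. The trend is the fit's prior for the spread and not a typical observed SD. Lying below it thus does not set Mef2d, Srf, Mef2c, Mkl1 or Mkl2 apart from other genes.

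**Figure D3:**
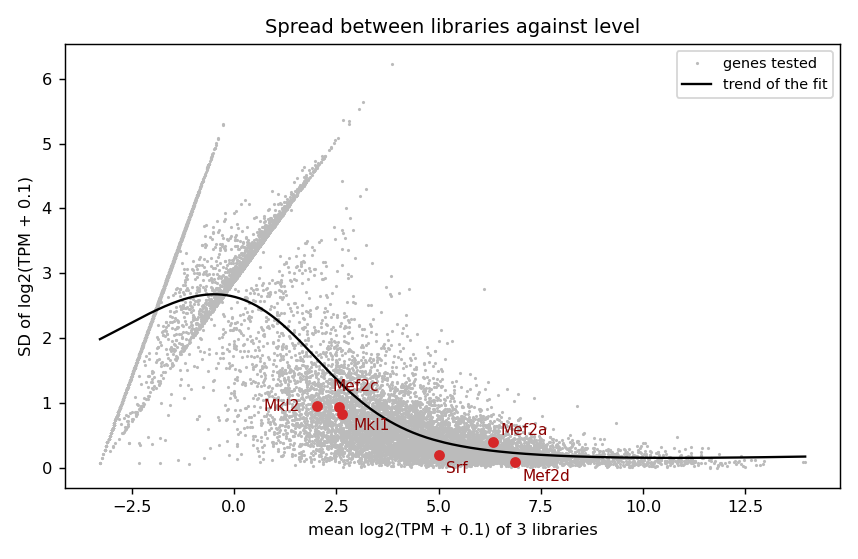
SD against mean of log2(TPM + 0.1) over the 3 libraries for all 12822 genes tested (grey), the trend used by the fit (line) and the 6 tested members (red). Mef2a lies above the line and the other 5 below it.

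The genes most like each member were found by the Euclidean distance of log2(TPM + 0.1) over the 3 libraries among 11293 genes of at least 1 TPM. Nearest to Mef2d were Pspc1 and Snrpa1 (distances 0.0940 and 0.0941), nearest to Mef2a were Pea15a and Dnttip2 (0.0826 and 0.0945), and nearest to Srf were Sppl3 and Tnfrsf10b (0.0674 and 0.0716). Among the lower members, Tmco1 and 1700021K19Rik were nearest to Mef2c (0.302 and 0.317), Adra1a and Mroh1 to Mkl1 (0.190 and 0.220), and Trmt5 and Fyco1 to Mkl2 (0.302 and 0.339). With 3 libraries of 1 group, such likeness is mainly one of level.

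The corepressors of MEF2 were led by Hdac4 and Hdac3. Of 6 corepressors, 4 were above 1 TPM, 1 was not decided and Hdac9 was listed at 0 (limma, Benjamini-Hochberg). The 4 were 80.0% of the 5 tested, against 60.8% of all genes tested. The class IIa deacetylase Hdac4 was the highest, at 65.8, 80.4 and 56.8 TPM in replicates 1, 2 and 3, and its relative Hdac5 gave 16.8, 13.9 and 5.54 TPM. Hdac7, another class IIa enzyme, gave 2.30, 5.01 and 0.68 TPM and was the one not decided. The class I deacetylase Hdac3 averaged 33.5 ± 7.08 TPM, and Cabin1, a calcineurin and MEF2 inhibitor, 9.46 ± 1.81 TPM.

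All 6 coactivators were above 1 TPM, as were 60.8% of all genes tested. The skeletal muscle cofactor Vgll2 averaged 81.2 ± 16.7 TPM and the acetyltransferase Crebbp 76.9 ± 6.48 TPM, while its relative Ep300 averaged 23.5 ± 5.004 TPM. The methyltransferase Carm1 averaged 21.4 ± 10.5 TPM and the steroid receptor coactivator Ncoa2 10.4 ± 5.12 TPM. Mamstr, a myocardin relative that activates MEF2, gave 6.63, 9.08 and 4.49 TPM, a level in the range of Mkl1 and Mef2c.

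Of 17 kinases and calcineurin genes that act on MEF2 or its deacetylases, 12 were above 1 TPM (85.7% of the 14 tested, against 60.8% of all genes tested), 2 were not decided and 3 were listed at 0. Sik1, a kinase of class IIa deacetylases, was the highest at 418, 397 and 474 TPM in replicates 1, 2 and 3. The calcineurin catalytic subunit Ppp3ca averaged 122 ± 32.4 TPM, its regulatory subunit Ppp3r1 60.5 ± 26.3 TPM, and the calcium/calmodulin kinase Camk2d 53.4 ± 18.5 TPM. The genes listed at 0 were the p38 kinase Mapk11 and the calmodulin kinases Camk2a and Camk2b, which are abundant in brain. They were picked for naming once their values were known.

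The 3 ternary complex factors, which compete with MRTFs for SRF, were all above 1 TPM, as were 60.8% of all genes tested. Elk4 gave 112, 106 and 108 TPM in replicates 1, 2 and 3 and Elk1 gave 13.8, 24.5 and 17.5 TPM. Elk3, which can repress, gave 9.93, 10.6 and 1.29 TPM and passed narrowly (limma adjusted p = 0.0440), a call lost without replicate 1 (0.214) or 2 (0.267). Elk4 thus stood above Srf, Mkl1 and Mkl2 in every library.

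All 9 immediate-early genes known as SRF targets were above 1 TPM, as were 60.8% of all genes tested. The median of the 9 means was 514 TPM, against 11.5 TPM over all genes tested. The zinc finger factor Egr1 averaged 2326 ± 363 TPM, the survival gene Mcl1 1957 ± 152 TPM, and the AP-1 genes Fosb and Fos 1655 ± 82.1 and 1335 ± 229 TPM. The muscle was digested and the cells sorted before RNA isolation, and no undigested sample was measured, so the levels before digestion are unknown.

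Of 27 cytoskeletal genes known as targets of SRF and MRTFs, 23 were above 1 TPM, 1 (Cnn1) was below, 2 (Actg2 and Cnn2) were not decided and Lmod1 was listed at 0; the 23 were 88.5% of the 26 tested, against 60.8% of all genes tested, and the median over the 26 was 137 TPM, against 11.5 TPM. The cytoplasmic actins Actg1 and Actb were the highest, at 2285 ± 154 and 1373 ± 62.6 TPM; actins have near-identical copies, and how reads common to them were assigned is not known. Next came the matricellular genes Cyr61 at 769 ± 94.9 TPM and Ctgf at 600.1 ± 105 TPM. Named after their values were seen, the focal adhesion genes Vcl and Zyx averaged 151 ± 6.10 and 187 ± 14.1 TPM, the skeletal and cardiac actins Acta1 and Actc1 averaged 28.6 ± 9.90 and 7.04 ± 1.60 TPM, and Actg2 and Lmod1 of smooth muscle averaged 0.60 ± 0.523 TPM and were listed at 0. Some of the list, such as Acta2, Tagln and Acta1, is also on the marker lists of mural cells or fibres used here. These genes are thus no separate sign of such cells, and the part of such cells was not tested.

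**Figure D4:**
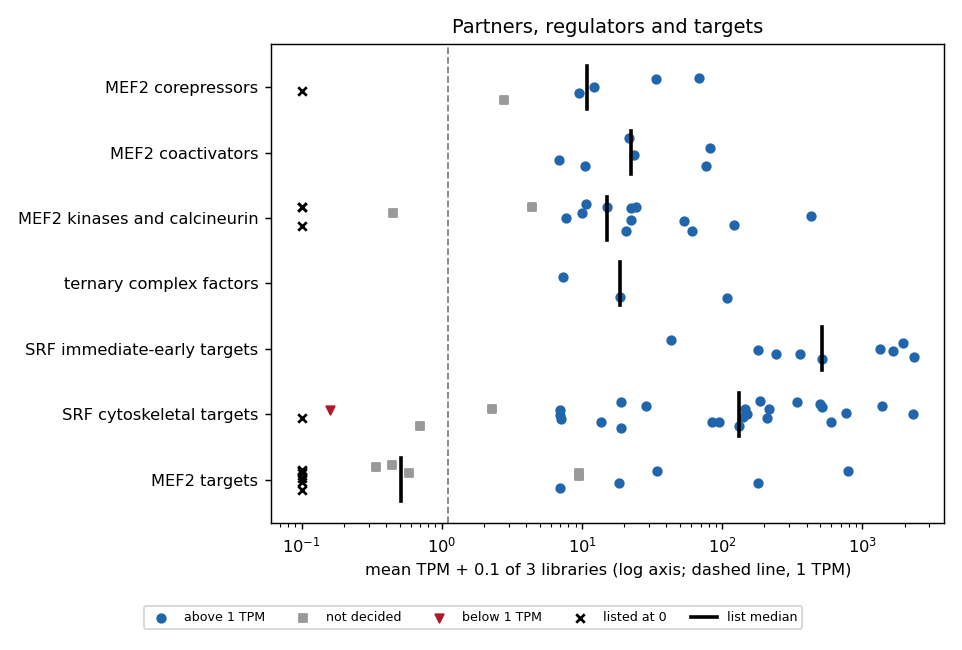
Mean TPM + 0.1 over the 3 libraries (log axis) of every gene of 7 lists of partners, regulators and targets, with the list median over all its genes as a bar and 1 TPM as a dashed line. The immediate-early targets of SRF lie mostly above 100 TPM. The cytoskeletal targets, with a median of 133 TPM, spread from a listed 0 to 2285 TPM, and 6 of the 16 MEF2 targets are listed at 0.

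CArG boxes were common in the promoters of that list. Promoter windows were found for 20 of its genes, and 8 held a CArG box in at least 1 window, or 40.0%, against 1.81% of all 27025 genes with a promoter. The 8, named for their windows and not by level, were Acta1, Actc1, Actg1, Vcl, Cnn2, Myl9, Fhl1 and Fhl2. Of 6 immediate-early targets with a window, Egr2 held one. The lists were drawn from known SRF targets, many of which were found through this sequence, so the shares describe the lists. The windows of 4 actin and adhesion genes are shown with the box in capitals (GRCm38.p6), since their transcripts differed widely in level: Actg1 at 2285, Vcl at 151, Acta1 at 28.6 and Actc1 at 7.04 TPM on average. They lie at chr11:120348566-120348595 (minus strand), chr14:20929161-20929190 (plus), chr8:123894829-123894858 (minus) and chr2:114052903-114052932 (minus).
Actg1: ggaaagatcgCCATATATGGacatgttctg
Vcl: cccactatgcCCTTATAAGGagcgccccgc
Acta1: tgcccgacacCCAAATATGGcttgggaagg
Actc1: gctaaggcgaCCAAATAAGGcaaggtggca

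**Figure D5:**
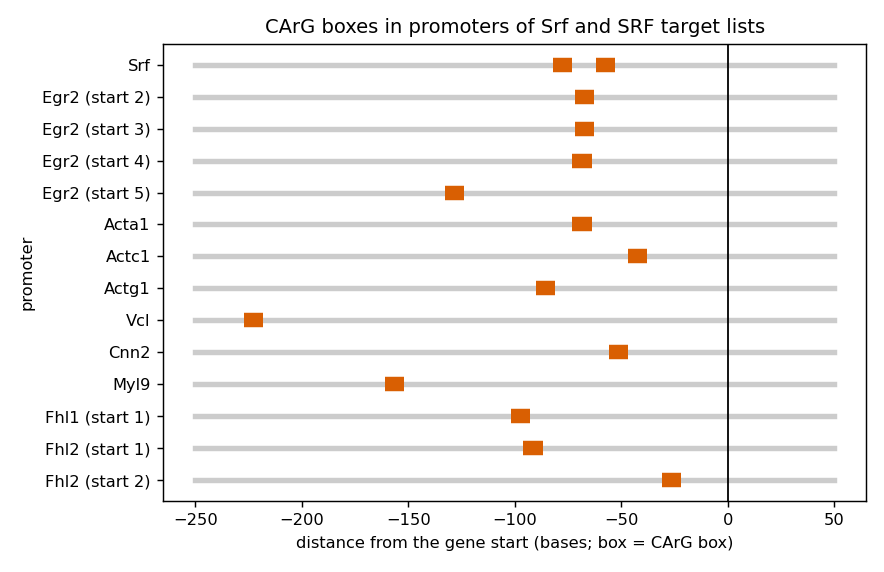
Positions of CArG boxes (blocks) in promoter windows of Srf and of the SRF target lists, in bases from the RefSeq gene start (vertical line); a gene with several starts has a row for each start with a box. Srf is the only row with 2 boxes, at -82 and -62.

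Genes known as MEF2 targets ranged from 792 TPM on average for Jun to a listed 0. Of 16 genes, 5 were above 1 TPM, 5 were not decided and 6 were listed at 0, so that 5 of the 10 tested were above 1 TPM, against 60.8% of all genes tested. The AP-1 gene Jun averaged 792 ± 117 TPM and the nuclear receptor Nr4a1, also an SRF target, 181 ± 31.1 TPM. The differentiation factor Myog gave 40.7, 52.6 and 9.19 TPM in replicates 1, 2 and 3. The endothelial and lung factor Klf2 gave 17.8, 30.3 and 6.87 TPM. Named after their values were seen, the sarcomere gene Myom1 gave 4.48, 4.11 and 11.9 TPM and was the fifth gene above 1 TPM (limma adjusted p = 0.0110), creatine kinase Ckm gave 6.56, 0 and 21.6 TPM, myoglobin (Mb) gave 0, 9.38 and 19.1 TPM, and Smyd1, Srpk3, Xirp1, Hdac9, Myoz2 and the glucose transporter Slc2a4 were listed at 0.

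A MEF2 site was found in the windows of 5 of the 14 MEF2 targets that had one, or 35.7%, against 3.704% of all genes. The list was drawn from known MEF2 targets, so this share describes the list. Both the highest gene of the list and a gene listed at 0 held the site, and Jun, Klf2, Xirp2 and Srpk3 were among the 5. The site of Jun, the most abundant gene of the list, is shown in capitals (chr4:95052236-95052265, minus strand, GRCm38.p6) and begins at position -33.
Jun: acatcatgggCTATTTTTAGggattgactg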

How the data were processed

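Total RNA of sorted satellite cells was isolated with a Picopure kit, per the labels, which give the library preparation as Illumina standard. The deposited TPM values were renormalised by the authors without mitochondrial genes, per the file name, and 0 symbols start with mt-. The submitters' processing notes name mm10, CASAVA 1.8, Bowtie 0.12.9 and RSEM 1.2.3; their roles and settings, the annotation and the strand setting were not given in the sources used here. The 3 libraries were assigned to 1 group by title. In the table, 27 symbols had become dates and were not named.

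Genes above 0 in at least 1 library (12822) were fitted with limma 3.58.1 in R 4.3.3 on log2(TPM + 0.1), which understates folds of low genes. The mean was tested against 1 TPM, two-sided, with moderation towards a variance trend; p-values were adjusted by Benjamini-Hochberg over every gene tested (threshold 0.05). Pairs of genes were compared as log2 ratios within a library with an exact sign-flip permutation test. The test against 1 TPM was checked on simulated data, and the pair test was not. Gene positions are from GENCODE M21 (GRCm38) and promoters from RefSeq (GRCm38.p6), with gene symbols matched through RefSeq synonyms. Older symbols of the table are kept. One pathway list and one promoter match are not reported here.

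Genes named were, by rule, all members, the 2 nearest genes of each, the 4 highest genes of each pathway list (all genes of lists of up to 6) and any called below 1 TPM, and the 3 highest marker genes and those listed at 0; others are said to be named after their values were seen. The members and lists were chosen with earlier results of these data known. Alternatives were other pseudocounts, filters, variance priors and scaling, and leaving out each replicate.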

Additional observations from a re-analysis of the deposited data

How the results depend on the processing

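The count of genes above 1 TPM (7796) lay between 7555 and 8008 under all 9 alternatives. The count below (279; 384 at an unadjusted p under 0.05) did not hold: it was 451 with a pseudocount of 1, 3 with 0.01, 0 when only genes averaging 0.1 TPM or more were tested, 8056 with no filter, 478 with no variance trend, and 0 when any 1 replicate was left out. With no filter, Mef2b and Myocd, at 0 in every library, enter the fit and are called below 1 TPM with no spread to test. Of 54 refits of member levels, 51 kept direction and call. The others were Mef2c without replicate 1 (1.98 above 1 TPM on the log2 scale, limma adjusted p = 0.129, from 0.000241 to 0.129 over the alternatives; leave-one-out range 1.98 to 2.91), Mkl1 without replicate 2 (2.26, limma adjusted p = 0.0585, from 8.41e-05 to 0.0585; range 2.26 to 2.99) and Mkl2 with no variance trend (1.90, limma adjusted p = 0.0400, from 0.0400 to 0.457). All 20 refits of the 4 named pairs kept their sign and moved by less than 1 SD; Mkl1 over Mkl2 still ran from 0.03 to 1.64 on the log2 scale when 1 replicate was left out. Among genes of the lists reported, Mapk12 and Tgfb1i1 lost their calls without replicate 1, Mical2 and Ptprc without replicate 2, Myom1 without replicate 3, Myh1 without replicate 2 or 3, Elk3 without replicate 1 or 2, and Elk3 and Myh1 also with a pseudocount of 1, no filter or no variance trend; the cause was not tested. Cnn1 lost its call below 1 TPM with a pseudocount of 0.01 and without replicate 1 or 2, and was not tested under the 0.1 TPM filter or without replicate 3. Calls above 1 TPM were gained by Mb without replicate 1, by Ckm without replicate 2, by Prkd2 without replicate 3, by Prkd2, Pdgfrb and Myh4 with no variance trend, and by Myh4 also with a pseudocount of 0.01 or the 0.1 TPM filter. No paired analysis was possible because the libraries form 1 group. Depth is unknown, so the precision of values of a few TPM cannot be given.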
